A study of Mus musculus with 57 samples.

Results

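The 100 array probes described here gave higher values in Lewis lung carcinoma tumours grown in old mice than in those grown in adolescent mice in 3 separate comparisons. They were chosen from 45281 probes on the array, of which 20591 were kept because they were detected (detection p under 0.05) on at least 10 arrays. For each kept probe the median log2 intensity of adolescent tumours was subtracted from that of old tumours in the 3 comparisons, and the 100 probes with the largest smallest difference of the 3 were taken. All age differences below were therefore used to choose the probes and are given as descriptions, with no test. Of the 100 probes, 86 matched 1 gene name, 14 matched none and 0 matched several. The 86 named probes stood for 82 genes, since H2ac18, H2-Ab1, Ky and Atraid each had 2. By their annotation, 83 probes lay on protein-coding genes and 3 on long noncoding RNA genes.

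Lewis lung carcinoma is a transplantable mouse lung tumour line, and the study asked how host age and proton irradiation bear on gene expression in such tumours. RNA of 57 tumours from male mice was hybridised to Illumina Mouse WG-6 BeadArrays, 1 tumour to an array. The labels give 6 sets. Adolescent mice, which the labels also call young, gave 9 tumours of a 0 Gy sham schedule in 3 fractions (sham x3), 9 of a 0 Gy acute sham schedule (sham acute) and 10 after 0.5 Gy of protons given 3 times (proton x3). Old mice gave 9, 10 and 10 tumours of the same kinds. Of the 10 old sham acute tumours, 9 have a description with no dose, and their source label gives 0 Gy. Each description ends in a number, which is lower for every old tumour than for every adolescent one. These numbers also run in blocks by set, and the labels do not say what they count. Host age, protons and schedule cannot be told apart from any handling that followed these numbers. The labels used here give no mouse strain, no age in weeks and no tumour site, and a tumour is a mixture of carcinoma cells and host cells. Where a transcript is lower in such bulk tissue, fewer cells of a type and less RNA per cell cannot be told apart.

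As background, host ageing is known for a low-grade rise of innate immune signalling, of which the interferon response is a part. Interferons bind receptors on nearly all cells and switch on genes whose promoters hold an interferon-stimulated response element, among them guanylate-binding proteins, IFIT proteins and the enzymes that attach or remove ISG15. Interferon gamma also induces MHC class II, the complex that presents peptides to helper T cells, chiefly on dendritic cells, B cells and macrophages.

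The promoters of 4 of the genes are shown. Gbp2 and Ifit3 are interferon-induced genes and H2-Eb1 is an MHC class II gene, the best-known groups among the 100 probes. Fcgr4 was the member with the largest smallest difference and was not counted in either group. Sequences are RefSeq's on GRCm38.p6, all on the plus strand, and cover the 250 bases before the annotated start: chr3:142620413-142620662 for Gbp2, chr19:34583279-34583528 for Ifit3, chr1:171018676-171018925 for Fcgr4 and chr17:34305617-34305866 for H2-Eb1. Capitals mark matches to GAAA, any 2 bases and GAAA again on either strand in Gbp2, Ifit3 and Fcgr4, and matches to CCAAT on either strand in H2-Eb1.
Gbp2: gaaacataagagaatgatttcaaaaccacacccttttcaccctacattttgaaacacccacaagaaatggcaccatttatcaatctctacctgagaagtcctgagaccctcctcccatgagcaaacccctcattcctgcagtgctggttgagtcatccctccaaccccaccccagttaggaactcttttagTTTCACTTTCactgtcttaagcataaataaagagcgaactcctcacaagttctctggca
Ifit3: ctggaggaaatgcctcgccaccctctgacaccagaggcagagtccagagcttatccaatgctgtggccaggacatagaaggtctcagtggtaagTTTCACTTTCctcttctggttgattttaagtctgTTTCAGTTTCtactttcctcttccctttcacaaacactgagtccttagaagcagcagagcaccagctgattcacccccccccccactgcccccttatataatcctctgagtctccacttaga
Fcgr4: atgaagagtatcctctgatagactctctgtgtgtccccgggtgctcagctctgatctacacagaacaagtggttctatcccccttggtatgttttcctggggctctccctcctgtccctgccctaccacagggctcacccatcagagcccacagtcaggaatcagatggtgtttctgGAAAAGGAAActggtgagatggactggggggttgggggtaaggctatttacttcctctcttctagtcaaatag
H2-Eb1: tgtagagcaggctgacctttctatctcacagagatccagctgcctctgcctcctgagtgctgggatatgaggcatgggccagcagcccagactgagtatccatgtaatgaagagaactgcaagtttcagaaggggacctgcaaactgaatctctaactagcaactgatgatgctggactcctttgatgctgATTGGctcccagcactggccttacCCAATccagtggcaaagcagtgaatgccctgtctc

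The letters GAAA, any 2 bases and GAAA again, a core of the interferon-stimulated response element, were searched on both strands of these windows. They were present for 5 of the 72 genes with a promoter in the table (Apol9a, Fcgr4, Gbp2, Ifit3 and Igtp), or 6.94%, against 3.46% of 27025 mouse genes. In Gbp2 the match began 59 bases before the start, in Fcgr4 73 bases before it, in Igtp 34 bases before it, and Ifit3 had 2 matches, 156 and 122 bases before it. TTCCNGGAA, a form of the gamma-activated site, was present for 0 of the 72 genes and for 1.09% of all genes. CCAAT, a part of many promoters and of the MHC class II promoter, was present for 35 of the 72, or 48.6%, against 37.5% of all genes. A match is a description of letters and was not tested for binding.

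Array quality touches the values in 3 ways. The share of probes detected per array averaged 40.6%, 40.2% and 41.2% in adolescent sham x3, sham acute and proton x3 tumours and 35.9%, 39.1% and 35.6% in the old sets, so that the sets with larger age differences below also had the larger gap in detection. Its part in the results was not tested. Over all kept probes, old sham x3 tumours 6 and 7 and adolescent sham x3 tumour 5 stood apart, with a median correlation to their own set of 0.889, 0.849 and 0.935 against 0.952 to 0.986 in the other 54 tumours. Many results, among them most counts of called members, are given with and without these 3 tumours. Correlations between probes, the differences of other probes of the same genes and the median differences of the lists use all 57 tumours. Among markers, Adgre1 and Csf1r of macrophages, S100a8 of neutrophils and Krt8, Krt18 and Vim were detected on all 57 arrays, while Cd8a, Ncr1 and Epcam were detected on 0. Cd3e was detected on at most 18 arrays, Cd3d on 8, Ms4a1 on 6 and Cd4 on 1.

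Levels are given from here on as log2 intensity after background correction and quantile normalization. The 100 probes were brighter than most: their median level was 9.11 against 6.85 for all kept probes, with a range from 6.28 to 13.71. They were detected on nearly every tumour, 97 of them on all 57 arrays, as were 51.6% of kept probes, and no member on fewer than 53. On this scale the median age difference of the 100 probes was 0.77 for sham x3, 0.63 for sham acute and 0.75 for proton x3 tumours, against -0.01, 0.01 and -0.03 for all kept probes. The largest single differences were 1.98, 1.25 and 1.62. On the scale of the rule, which had no background correction, the medians were 0.63, 0.47 and 0.59. The sham acute comparison gave the smallest of the 3 differences for 64 probes, proton x3 for 23 and sham x3 for 13. At the limit of the list, Dda1, Rnf135 and Man2b1 had smallest differences of 0.387, 0.385 and 0.385, and just outside it Mxra7, Insl6 and Mmp12 each had 0.383. Probes ranked by the mirrored rule, lower in old hosts, reached -0.39 to -0.73, close in size to the 0.38 to 0.74 of the members.

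**Figure D1:**
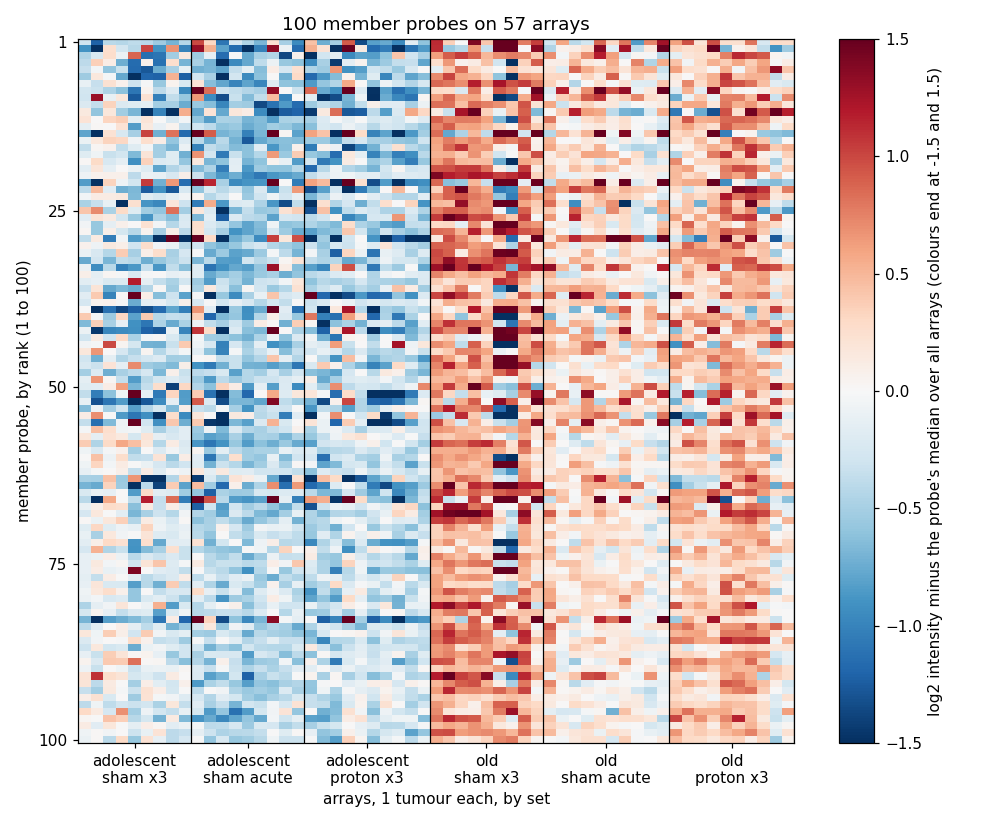
Level of each of the 100 probes (rows) in each of the 57 tumours (columns, grouped by set), as log2 intensity relative to the median of the probe over all tumours. Old sets are mostly above and adolescent sets mostly below the median of the row, with single tumours of both ages that go the other way.

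For most members the ranges of the 2 ages overlapped in each comparison. Every old tumour was above every adolescent tumour for 20 members of the sham x3 schedule, for 14 under sham acute and for 15 under proton x3, where 2.18%, 1.59% and 1.52% of all kept probes separated in this way. The rule used these contrasts, so nothing is read from the counts. Zzef1 alone among the members separated the ages in each of the 3 comparisons, as 0.034% of kept probes did. With all 29 old and 28 adolescent tumours pooled, 0 members separated the ages (0.00486% of kept probes did). Averaged over the 100 probes, single tumours ranged from 8.48 to 9.09 in adolescent and from 9.16 to 9.86 in old mice, a gap that the choice of probes fixes.

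Interferon-induced genes made up 4 of the 100 probes by the list used here: Gbp2, Ifit3, Usp18 and Igtp. Gbp2 encodes a guanylate-binding GTPase that attacks intracellular pathogens. In sham x3 tumours Gbp2 had a lowest, median and highest level of 8.42, 9.12 and 9.56 in adolescent and of 9.29, 9.79 and 11.03 in old hosts. The same levels in sham acute tumours were 9.01, 9.18 and 11.50 against 9.29, 10.34 and 11.90, and in proton x3 tumours 8.03, 8.73 and 11.25 against 9.31, 9.71 and 10.86. Old medians were the higher ones in each comparison, by 1.59-, 2.22- and 1.97-fold, yet the brightest adolescent proton x3 tumour exceeded every old tumour of that schedule.

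Ifit3, whose protein works with other IFIT proteins against viral RNA, and Usp18, a protease that removes ISG15 and damps interferon receptor signalling, showed a wide gap in the sham x3 tumours. Ifit3 ranged from 6.64 through a median of 6.98 to 8.15 in adolescent and from 8.16 through 8.79 to 10.40 in old sham x3 tumours. Usp18 ran from 6.38 through 6.86 to 7.75 against 8.35 through 8.84 to 9.79 there. For both genes the 9 old sham x3 tumours were all above the 9 adolescent ones, by 3.50-fold for Ifit3 and 3.94-fold for Usp18 at the medians. In the other schedules the gap was smaller and the ages overlapped. Sham acute tumours had Ifit3 levels of 6.49, 7.59 and 9.66 in adolescent and 7.35, 8.27 and 9.12 in old hosts, a 1.60-fold difference of medians, and proton x3 tumours 6.41, 7.72 and 9.38 against 7.42, 8.44 and 9.54, or 1.64-fold. For Usp18 the medians were 7.63 and 8.31 in sham acute and 7.15 and 8.31 in proton x3 tumours, or 1.60- and 2.22-fold.

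Igtp, an immunity-related GTPase induced by interferon gamma, had levels of 6.32, 7.09 and 7.95 in adolescent and 7.38, 8.32 and 9.62 in old sham x3 tumours. Its medians were 7.69 and 8.27 in sham acute and 6.89 and 7.98 in proton x3 tumours, and a single adolescent proton x3 tumour read 9.44. Members outside that list that are known to act with it were named after their values were seen. Uba7, the enzyme that activates ISG15, had levels of 8.72, 9.09 and 9.30 in adolescent and 9.72, 10.23 and 11.39 in old sham x3 tumours, with no overlap and a 2.20-fold difference of medians. In sham acute and proton x3 tumours the old median of Uba7 was 1.45- and 1.87-fold higher. Apol9a, an apolipoprotein L gene, was 3.55-, 2.38- and 2.26-fold higher at the medians, from a dim 5.49 in adolescent sham x3 tumours. Rnf135, a ubiquitin ligase that activates the RNA sensor RIG-I, and Helz2 were also members.

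**Figure D2:**
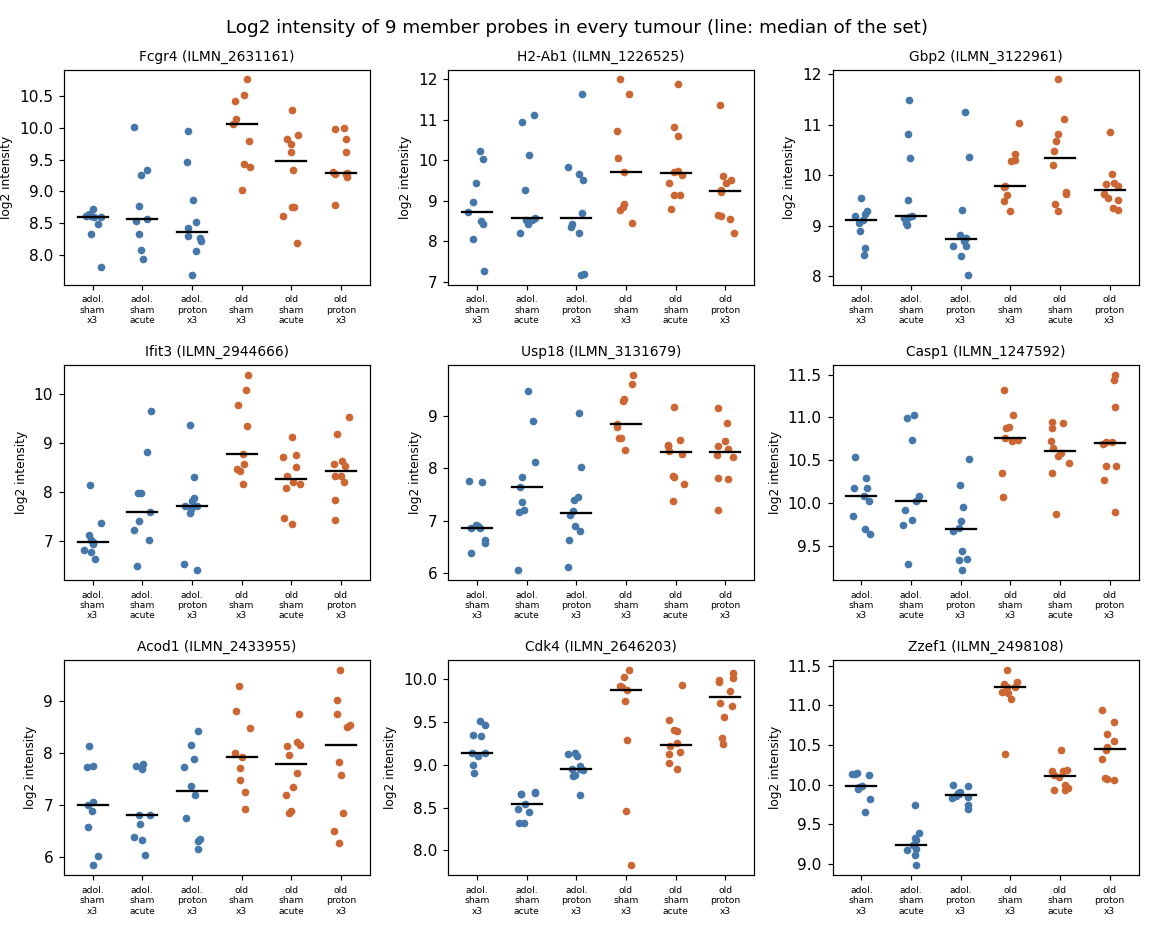
Log2 intensity of selected members in each tumour (points) of the 6 sets, with a line at the median of the set. Old medians lie above adolescent ones in every pair of sets, while single tumours overlap in most pairs.

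MHC class II genes contributed H2-Ab1 with 2 probes and H2-Eb1 with 1, the beta chains of the I-A and I-E molecules. The brighter H2-Ab1 probe (ILMN_1226525) read 7.28, 8.72 and 10.23 at its lowest, median and highest in adolescent and 8.45, 9.71 and 11.99 in old sham x3 tumours. In sham acute tumours the levels were 8.21, 8.58 and 11.12 against 8.80, 9.67 and 11.88, and in proton x3 tumours 7.17, 8.57 and 11.64 against 8.20, 9.25 and 11.35. Old medians were 1.98-, 2.13- and 1.60-fold higher, and the ages overlapped in every schedule. H2-Eb1 varied as widely, with 6.60, 8.44 and 9.76 in adolescent and 8.07, 9.21 and 11.65 in old sham x3 tumours. Its medians differed by 1.71-, 1.88- and 1.66-fold, and old tumours 6 and 7 of the sham x3 set were its brightest, at 11.36 and 11.65. Without the 3 tumours that stood apart, the sham x3 difference fell from 0.99 to 0.19 for this H2-Ab1 probe, from 1.40 to 0.28 for ILMN_2913716, the other H2-Ab1 probe, and from 0.77 to 0.26 for H2-Eb1. For Ifit3 it was 1.58 without them and 1.81 with them, and the median over the 100 probes stayed at 0.77.

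Genes of macrophages and of inflammation were led by Fcgr4, the member with the largest smallest difference. Fcgr4 encodes an activating receptor for the constant part of antibodies, carried by mouse monocytes, macrophages and neutrophils. In sham x3 tumours Fcgr4 read 7.81, 8.60 and 8.73 in adolescent and 9.02, 10.06 and 10.76 in old hosts. Sham acute tumours read 7.94, 8.57 and 10.02 against 8.18, 9.47 and 10.28, and proton x3 tumours 7.69, 8.36 and 9.95 against 8.78, 9.30 and 9.99. The old median was 2.76-, 1.87- and 1.91-fold higher; the sham x3 tumours of the 2 ages did not overlap, whereas those of the other schedules did. Without the 3 tumours the sham x3 fold was 2.30.

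Acod1, which makes the metabolite itaconate in activated macrophages, was 1.92-, 1.97- and 1.84-fold higher at the old medians. Its sham x3 levels of 5.84, 6.99 and 8.13 in adolescent and 6.92, 7.93 and 9.30 in old hosts overlapped. Casp1, the protease that activates interleukin 1 beta, read 9.64, 10.08 and 10.54 in adolescent and 10.07, 10.76 and 11.32 in old sham x3 tumours. Its old medians were 1.61-, 1.50- and 2.01-fold higher, with overlap in each schedule. Il1rn, the interleukin 1 receptor antagonist, had differences of 0.77, 0.87 and 0.75 on the log2 scale in sham x3, sham acute and proton x3 tumours. Tyrobp, an adaptor of activating myeloid receptors, had 0.51, 0.53 and 0.71. The other kept probe of Acod1 had differences of -0.39, 0.62 and 0.46, and that of Il1rn -1.98, 1.00 and -0.62, each detected on 48 arrays.

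Arg1, the arginase of alternatively activated macrophages, read 9.60, 10.27 and 11.31 in adolescent and 5.82, 10.80 and 11.30 in old sham x3 tumours, where the low values of 6.08 and 5.82 were those of tumours 6 and 7. In sham acute tumours it read 9.31, 9.84 and 10.25 against 9.85, 10.84 and 11.28, a 2.00-fold difference of medians, with 9 of the 10 old tumours above the highest adolescent one. In proton x3 tumours it read 9.95, 10.28 and 11.57 against 9.41, 10.77 and 11.46, and the ages overlapped over nearly their whole range. The macrophage list as a whole did not separate the ages: its mean level per set had medians of 8.47, 8.39 and 8.55 in adolescent and 8.28, 8.45 and 8.65 in old sham x3, sham acute and proton x3 tumours.

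Matrix and vessel genes were fewer. Mmp3, a matrix metalloproteinase made mainly by fibroblasts, read 9.91, 11.36 and 12.90 in adolescent and 8.42, 11.85 and 13.33 in old sham x3 tumours, and was 1.41-, 1.55- and 1.36-fold higher at the old medians. Its lowest old sham x3 values were again tumours 6 and 7. The other Mmp3 probes, also detected on all 57 arrays, had log2 differences of -0.24, 1.01 and -0.12 (ILMN_2704576) and 0.02, 0.46 and 0.37 (ILMN_2899041). Cercam, a cell adhesion protein, read 7.41, 8.20 and 9.48 in adolescent and 7.11, 9.54 and 9.98 in old sham x3 tumours. Old medians of Cercam were 2.54-, 1.67- and 2.08-fold higher, and 8 of the 10 old proton x3 tumours were above the highest adolescent one. Gpihbp1, which carries lipoprotein lipase across capillary endothelium, read 6.62, 7.90 and 8.49 against 8.63, 8.90 and 12.49 in sham x3 tumours, and tumours 6 and 7 gave its 2 highest values. The other Gpihbp1 probe, detected on all 57 arrays, had log2 differences of -0.42, 0.99 and -0.14. The basement membrane gene Nid1 and the ferritin receptor gene Scara5 had sham x3 differences of 1.29 and 1.17. Their other kept probes had sham x3 differences of -0.69, on a probe detected on all 57 arrays, and -0.27, on one detected on 17.

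Other members had tighter values. Zzef1 read 9.66, 9.98 and 10.15 in adolescent and 10.39, 11.23 and 11.45 in old sham x3 tumours. Its sham acute levels were 8.98, 9.23 and 9.74 against 9.93, 10.10 and 10.44, and its proton x3 levels 9.69, 9.87 and 10.00 against 10.06, 10.45 and 10.94. All old tumours were above all adolescent ones within each schedule, by 2.39-, 1.84- and 1.50-fold at the medians. The noncoding gene 4933404K08Rik read 6.34, 6.83 and 7.18 in adolescent and 7.36, 7.82 and 8.26 in old sham acute tumours. It did not overlap in the sham acute or proton x3 tumours, and its old medians were 1.96-, 1.98- and 1.88-fold higher. Cdk4, the cyclin D kinase that starts the cell cycle, read 8.32, 8.55 and 8.69 against 8.95, 9.24 and 9.94 in sham acute tumours and 8.65, 8.95 and 9.14 against 9.25, 9.79 and 10.07 in proton x3 tumours. It too separated the ages in these schedules, whereas in sham x3 tumours old tumours 6 and 7, at 8.46 and 7.83, lay below every adolescent tumour.

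H2ac18, a histone H2A gene, had 2 member probes. ILMN_1231053 read 9.02, 9.92 and 11.03 in adolescent and 10.53, 10.87 and 11.20 in old sham x3 tumours, with old medians 1.94-, 1.61- and 1.76-fold higher in the 3 schedules. ILMN_2751948 was 1.89-, 1.48- and 1.59-fold higher. Replication-dependent histone genes of this kind are nearly identical in sequence, so the gene behind the signal is uncertain. Tubb2b, a beta tubulin, was 1.62-, 1.71- and 1.79-fold higher at the old medians, and its adolescent and old tumours overlapped in each schedule. The other kept H2ac18 probe, detected on 26 arrays, had log2 differences of -0.99, -0.63 and -1.22. Of the other Tubb2b probes, ILMN_2588051, detected on all 57 arrays, had 0.18, 0.10 and 0.32. The rest, detected on 19 to 28 arrays, were lower in all 3 schedules, for example ILMN_1221835 with -0.88, -0.42 and -1.13. The next members by rank were Fgfbp3, Tex264, Fryl, Fam120b, Disp1, Blvrb, Cdk20 and Peg3, together with 4 probes with no gene name among the first 25, whose differences on the log2 scale lay within the range given above.

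Members did not vary as 1 block from tumour to tumour. After the mean of each set was removed, the correlation between 2 members over the 57 tumours had a median of 0.14 over 4950 pairs, from -0.77 to 0.99. These tumours share arrays and normalization, and the values are descriptions. The 3 MHC class II probes varied together, at 0.98 to 0.99. ILMN_2607675, ranked second and without a gene name, had a correlation of 0.99 with H2-Ab1 and H2-Eb1. Gbp2, Ifit3, Usp18 and Igtp correlated at 0.57 to 0.89 with a median of 0.67. The pattern most like Fcgr4 was that of Igtp at 0.76, followed by Gbp2 and H2-Ab1, each at 0.74.

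The array carries other probes for many of the same genes, which the rule did not choose. There were 91 such kept probes, for 52 of the genes. Of these, 21 were higher in old hosts in all 3 comparisons, or 23.1%, where 23.2% of all kept probes were; 18 were lower in all 3. Among the 56 that were detected on at least 53 arrays, as the members were, 19 were higher in all 3, or 33.9%, against 25.4% of the 12766 kept probes so detected. Most of these other probes were thus not higher in old hosts in all 3 comparisons. Some were dim and detected on few arrays, which limits what they can show.

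Of the 4 other probes of interferon and MHC list genes, 2 were higher in old hosts in all 3 comparisons, those of Usp18 and H2-Ab1. The other Gbp2 probe, with medians as dim as 4.57, had differences of -0.45, 1.68 and -0.19 in sham x3, sham acute and proton x3 tumours. Ifit3 gave -0.33, 0.52 and -0.68 on its other probe, which was also dim. The other Usp18 probe gave 0.02, 1.03 and 0.40, and the third H2-Ab1 probe 0.78, 1.19 and 0.02. Bright probes disagreed too: for Cdk4, ILMN_2690976 had differences of -1.22, 0.05 and -0.21. Both other probes of Zzef1 were lower in old hosts in sham x3 and proton x3 tumours, by -0.55 and -0.55 and by -0.21 and -0.75. With set means removed, these 2 probes correlated with the member Zzef1 probe at only -0.19 and 0.05. The Zzef1 values given elsewhere are those of the member probe alone. The correlation between a member and another probe of its gene, with set means removed, had a median of 0.41 over 95 pairs, and 36 pairs were over 0.5.

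Some genes were higher by a second probe as well, and they were named after the values were seen. Swsap1 had differences of 1.10, 0.56 and 1.28 on its other probe, Ttyh2 1.00, 0.74 and 0.88, Myo9b 0.72, 0.38 and 0.71, and Slc35b3 0.66, 0.35 and 0.74 on ILMN_2948971. Arg1 was higher by 0.68, 0.32 and 0.33 on its other probe, which correlated with the member at 0.97. Rnf135 was higher by 1.00, 0.50 and 0.48 on ILMN_2655034. Slc35b3 and Rnf135 each had a further kept probe that was not higher in all 3 comparisons. For Slc35b3, ILMN_1246713 gave -0.80, 0.27 and 0.03, and for Rnf135, ILMN_2820383 gave 0.16, -0.25 and -0.07. Whether the probes of a gene overlap in sequence was not tested.

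**Figure D3:**
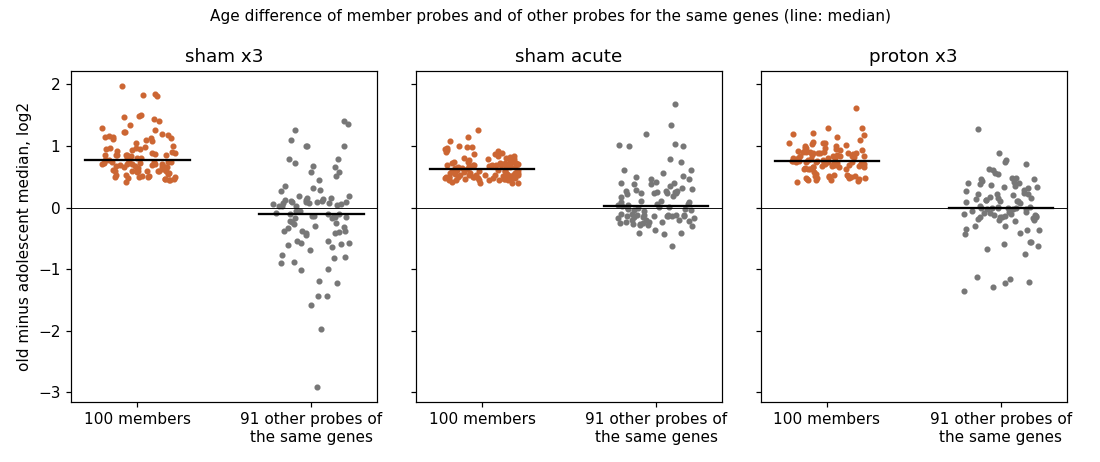
Old minus adolescent difference of set medians (log2) for the 100 members and for the 91 other kept probes of the same genes in each schedule, with a line at the median. The members lie above 0 by choice, while the other probes scatter around 0 with medians of -0.10, 0.03 and -0.00.

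Beyond the members, the interferon list had 28 kept probes for 17 genes, and 17 of them were higher in old hosts in all 3 comparisons. Without the 4 members this was 13 of 24, or 54.2%, where 23.2% of all kept probes were. The list's median differences were 0.60, 0.49 and 0.22. Examples, chosen after their values were seen, are Oas2 (1.77, 0.57 and 0.72), the chemokine gene Cxcl10 (1.68, 0.36 and 0.77) and Gbp3, whose probe ILMN_1244513 had 1.10, 0.72 and 0.65. Isg15 differed by 1.53 and 0.70 in sham x3 and sham acute tumours and by 0.09 in proton x3 tumours. The transcription factor gene Irf1 had 5 probes that disagreed, from -0.71 to 0.60 in sham x3 tumours.

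The MHC list had 30 kept probes, of which 14 of the 27 non-members, or 51.9%, were higher in all 3 comparisons, with median differences over the list of 0.25, 0.36 and 0.23. Without the 3 tumours that stood apart this was 9 of 27, or 33.3%, where 23.4% of all kept probes were, while for the interferon list it stayed at 13 of 24. Ciita, the master regulator of MHC class II, differed by 0.31, 0.42 and 0.28, and H2-Aa, the alpha chain of I-A, by 0.23, 0.54 and 0.59. For the class I gene H2-D1 3 of its 4 probes were lower in old sham x3 tumours, by -1.10 to -1.66. Lists of other cells and processes were nearer to or below the share of all kept probes: 5 of 23 for macrophages (21.7%), 7 of 39 for fibroblasts and matrix, 4 of 27 for the cell cycle, 1 of 11 for neutrophils, 1 of 19 for endothelium and 0 of 9 for erythroid cells. Of the lymphocyte lists, 3 of 7 T cell probes, 3 of 5 cytotoxic and NK probes and 2 of 2 B and plasma cell probes were higher in all 3. The T cell list had set medians of 6.38, 6.40 and 6.23 in adolescent and 6.71, 6.27 and 6.62 in old sham x3, sham acute and proton x3 tumours, with Cd8a detected on 0 arrays. The part of such cells in the members' values was not tested.

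**Figure D4:**
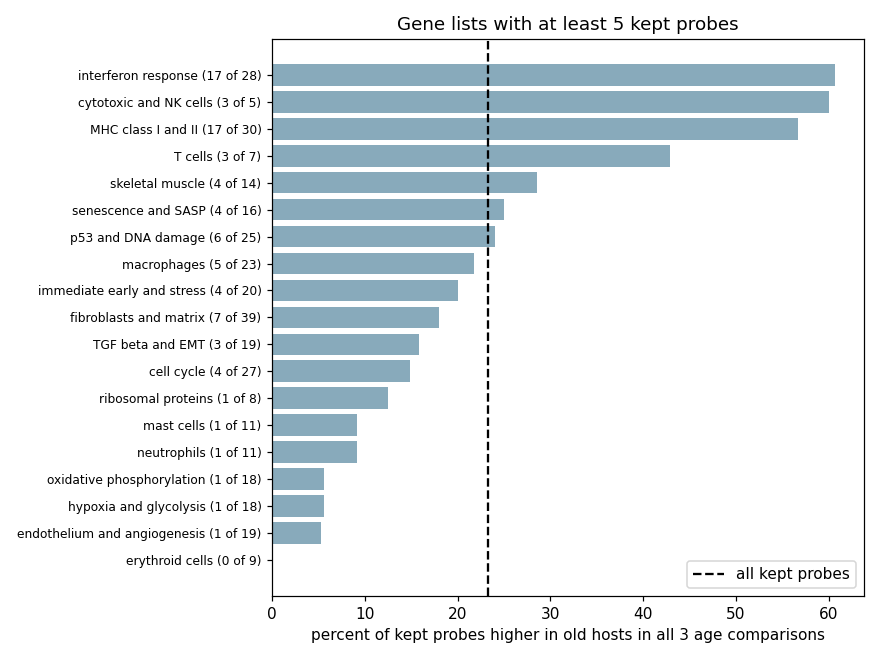
Percent of each list's kept probes that were higher in old hosts in all 3 age comparisons, for lists with at least 5 kept probes, with the 23.2% of all kept probes as a dashed line. The interferon, MHC, and cytotoxic and NK lists stand highest, and the erythroid list is at 0.

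Protons were compared with the sham x3 tumours of the same age, a contrast that the rule did not use, although it used the same arrays. In old hosts, 20 members fell and 1 rose (limma, adjusted p under 0.05), where 14% of all kept probes fell and 17.6% rose. The median member changed by -0.19, against 0.01 for all kept probes, and 74 members were below 0, as were 48.4% of kept probes. Without the 3 tumours that stood apart, 14 members fell and 0 rose, where 13.9% of kept probes fell, and 6 of the 21 members that had changed were among them. The lowest, median and highest levels of ILMN_2728134, a probe with no gene name, were 7.32, 8.06 and 11.36 in sham x3 and 5.98, 7.00 and 8.11 in proton x3 tumours. It fell by 1.65 (SE 0.35) on the log2 scale, with an adjusted p of 0.000264 by limma, and by 0.95 without the 3 tumours.

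Zzef1, whose old sham x3 and proton x3 levels are given above, fell by 0.71 (SE 0.10, adjusted p = 1.37e-06), and by 0.72 without the 3 tumours. Usp18 fell by 0.76 (SE 0.30, adjusted p = 0.0468), but its difference was -0.61 with an adjusted p of 0.158 without them. Uba7, which acts with Usp18 on ISG15, fell by 0.54 (SE 0.17, adjusted p = 0.0102), and was at -0.25 (adjusted p = 0.198) without the 3 tumours. Gpihbp1 fell by 1.08 (adjusted p = 0.0231) and the semaphorin gene Sema4a by 0.64 (adjusted p = 0.0489); without the 3 tumours these were -0.35 (adjusted p = 0.409) and -0.01 (adjusted p = 0.979). ILMN_2603837 rose by 0.45 (adjusted p = 0.0308), and was at 0.23 (adjusted p = 0.249) without them. Of the interferon list, 7 of 28 probes fell and 0 rose, with a median change of -0.26. Without the 3 tumours 6 fell. Of the MHC list, 3 of 30 rose and 3 fell, and 3 rose and 1 fell without them. Among all kept probes 14% fell and 17.6% rose, and without the 3 tumours 13.9% fell and 12.7% rose.

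In adolescent hosts 0 members passed the threshold with protons, where 0.0243% of all kept probes fell and 0.00971% rose by limma. At an unadjusted p under 0.05, 16 members were past it, all lower after protons, where 5.72% of all kept probes were lower and 5.06% higher at that threshold. The lowest adjusted p among members was 0.07, for Fryl, at -0.51. The median member changed by -0.15, against 0.01 for all kept probes, and 76 members were below 0. Of the 28 interferon probes 0 rose and 0 fell, and their median change was 0.15. Whether the proton change differed between the ages was not tested, since that difference is made of contrasts that chose the probes.

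The sham acute tumours were compared with the same sham x3 tumours as controls, so the comparisons share arrays. The rule used the values of these sets as well, and sham acute gave the smallest age difference for 64 members. For those 64, the rule's medians by arithmetic change less upward or more downward from sham x3 to sham acute in old than in adolescent hosts. Counts at the 2 ages are therefore not set against each other, and whether the change differed between the ages was not tested. In old hosts 49 members fell and 1 rose by limma, where 21.2% of all kept probes fell and 26.4% rose, and the median member changed by -0.36 against 0.02. Without the 3 tumours 59 fell and 0 rose, where 22.3% of kept probes fell, and 42 of the 50 members that had changed were among them. In adolescent hosts 16 fell and 0 rose, where 5.51% of all kept probes fell and 5.8% rose, with a median of -0.21 against -0.01, and 22 fell without adolescent tumour 5 and the old pair, where 8.29% of kept probes fell; 15 of the 16 were among them. The members that fell at both ages numbered 14, or 14 of the 16 in adolescent and of the 49 in old hosts, as did 1.68% of all kept probes. Schedule and any handling that went with it cannot be told apart, and the shares of probes detected given above moved with it in old hosts.

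Zzef1 fell in sham acute tumours by 1.05 (SE 0.10, adjusted p = 1.65e-11) in old and by 0.72 (SE 0.11, adjusted p = 1.13e-05) in adolescent hosts. Gpr146, a G protein-coupled receptor gene, fell by 0.89 and by 0.62 (adjusted p = 0.000363 and 0.0470), the latter at -0.51 with an adjusted p of 0.0509 without the 3 tumours. Other members that fell in old hosts included Ifit3 by 0.84 (adjusted p = 0.0263), Usp18 by 0.82 (adjusted p = 0.0206) and Fcgr4 by 0.65 (adjusted p = 0.0308). Without the 3 tumours these were at -0.52, -0.67 and -0.45, with adjusted p of 0.199, 0.0841 and 0.168. In adolescent hosts the palmitoyltransferase gene Zdhhc5 fell by 0.87, Fryl by 0.71 and Cdk4 by 0.68 (adjusted p = 0.000153, 0.000163 and 0.00691). Sema4a and Gpihbp1 fell by 0.96 and 1.35 in old hosts (adjusted p = 0.00179 and 0.00261), but were at -0.32 and -0.62 with adjusted p of 0.0622 and 0.0879 without the 3 tumours. Arg1 rose by 1.03 in old hosts (adjusted p = 0.0465), and this turned to -0.06 (adjusted p = 0.873) without them. Of the 28 probes of the interferon list 2 rose and 5 fell in old hosts (2 and 2 without the 3 tumours). In adolescent hosts 3 rose and 0 fell. Among all kept probes 26.4% rose and 21.2% fell in old hosts (22.2% and 22.3% without the 3 tumours). The shares in adolescent hosts were 5.8% and 5.51%. In all, 53 members passed at least 1 of the 4 comparisons within an age, as did 59.5% of all kept probes, and 47 passed none.

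**Figure D5:**
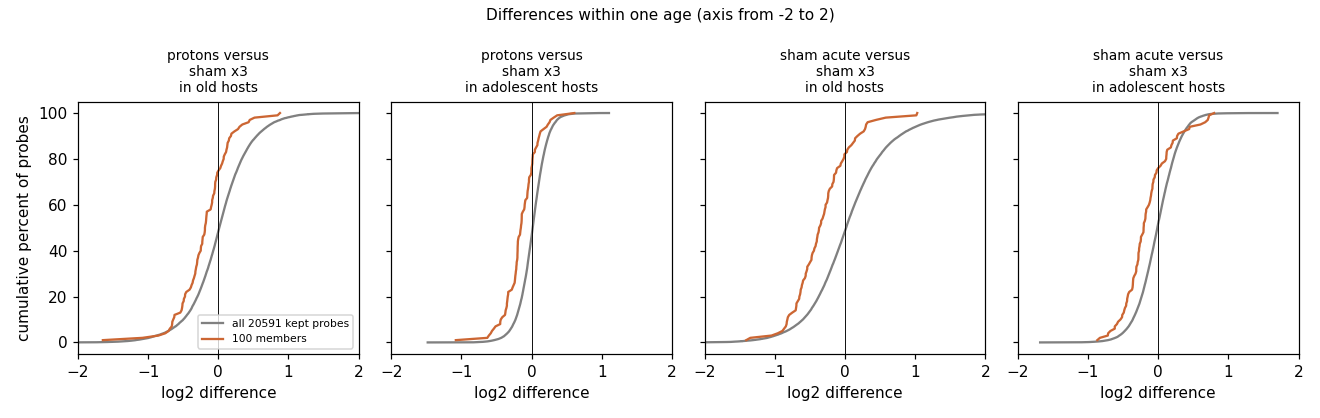
Cumulative percent of the 100 members (orange) and of all 20591 kept probes (grey) against the log2 difference in each of the 4 comparisons within an age. The curve of the members lies to the left of that of all kept probes around 0 in each panel, with medians of -0.19, -0.15, -0.36 and -0.21.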

How the data were processed

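Tumours were grouped by their titles and descriptions. The deposited intensity is the mean bead signal of a probe, and its lowest value of 70.8 and array medians of 89.2 to 208 show no background subtraction. The deposited detection p-value compares a probe with the negative controls, per the file headers. Per the submitters' processing notes the scans went through GenomeStudio, with no version stated. The deposited processed table is a straight line of these intensities on each array, within 0.0251, and was used only as an alternative.

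Probes were chosen on quantile-normalized log2 intensities. Levels and tests used log2 values that neqc (limma 3.58.1, R 4.3.3, offset 16) made from the deposited intensity and detection p-values. limma's lmFit and eBayes fitted a mean for each of the 6 sets over 57 arrays, with Benjamini-Hochberg adjustment over 20591 probes and a threshold of 0.05. The script was tested on simulated data. SE is limma's, and a fold is 2 to the power of a log2 difference, which understates the change of dim probes. Whether the tumours came from separate animals is not stated beyond the design text's word that replicates were biological, and their number limits the precision.

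Genes were named from GEO's platform annotation, in which 34885 probes have 1 gene name, 18 several and 10378 none, with symbols updated by gene ID through RefSeq. The members and the gene lists were chosen with earlier results of these data known. Named were the first 25 members, members of genes with 2 member probes, members in a list, up to 5 called members per direction and comparison, the probes at the limit, and the other probes of leading genes. Alternatives covered background correction, means, filters, array weights, the sets in the fit, outlying tumours, the deposited processed values and a replicate block. Replicate numbers are shared by the proton and sham x3 sets, but the deviations of same-numbered tumours correlated above 0.1 in only 1 of 9 pairs in old and 4 of 9 in adolescent hosts, so the numbers were not taken as pairs.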

Additional observations from a re-analysis of the deposited data

Results flagged for a closer look

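Single tumours that lay far from the rest of their set were looked for in the values of 18 members and in 2 measures of the arrays, over 120 sets of values. By Dixon's test 12 had such a tumour, where chance alone gives about 1 in 20, or 6. The cause of none was tested.

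Old proton x3 tumour 4 was the highest of its set for 3 members, with Gbp2 at 10.9 (median 9.71), H2-Ab1 at 11.4 (median 9.25) and H2-Eb1 at 10.9 (median 8.55). Igtp read 9.44 in adolescent proton x3 tumour 4 (median 6.89). Among sham x3 tumours, Fcgr4 was low at 7.81 in adolescent tumour 2 (median 8.60), Ifit3 was high at 8.15 in adolescent tumour 1 (median 6.98) and Zzef1 was low at 10.4 in old tumour 9 (median 11.2). In sham acute tumours Mmp3 was low at 9.57 in adolescent tumour 12 (median 12.04), Cercam was high at 9.86 in old tumour 15 (median 9.21) and Zzef1 was high at 10.4 in old tumour 10 (median 10.1). That same old tumour 10 had the lowest share of probes detected of its set, 35.4% against a median of 39.3%. Tubb2b read 10.8 in old proton x3 tumour 9 (median 9.94).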

How the results depend on the processing

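Of the 100 members, 34 were kept with neqc background correction, 59 with means in place of medians, 67 with the deposited processed values and 92 without the 3 outlying tumours. Members that separated the ages numbered 34 in place of 20 in sham x3 tumours without the 3 outlying tumours. They numbered 26 in place of 14 in sham acute tumours when members were chosen by means. The same counts over all kept probes were not made under these settings, so nothing is read from these changes. With only the sets compared in the fit, 6 members in place of 21 passed for protons in old hosts, as did 2594 in place of 6505 of all kept probes, and 1 in place of 0 members in adolescent hosts. With array weights 10 in place of 0 passed for protons in adolescent hosts and 33 in place of 16 for sham acute in adolescent hosts, all of them lower. For all kept probes, protons in adolescent hosts gave 7 calls, but 927 with array weights and 65 with only the sets compared. Sham acute in adolescent hosts gave 2329 calls over all kept probes, but 4921 with array weights. The share of kept probes that fell there was 5.51%, and 12.7% with array weights. The cause of these shifts was not tested. The sham acute effect of Arg1 in old hosts was -0.056 without the 3 outlying tumours. Of 125 checks of named single-probe effects, 96 kept their direction and side of the threshold, 28 kept their direction only and 1 turned. Where only the filter or the sets in the fit changed, the difference itself stayed the same. Its direction could not turn in those checks, so the count that turned says little about them. With the replicate block 18 members passed for protons in old hosts and 0 in adolescent hosts; over all kept probes it gave 5813 calls in place of 6505 and 21 in place of 7. Same-numbered tumours correlated at -0.16 to 0.31 in old and -0.22 to 0.35 in adolescent hosts, and 0 correlated best with their own number. Dim probes, such as the other probes of Gbp2 and Ifit3, lie near the background and limit what a second probe can show.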
